A study of Mus musculus with 6 samples.

Results

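The genes described here encode subunits of the mitochondrial respiratory chain and of ATP synthase, apart from Atp5s and Atp5sl, which are not structural subunits. They were taken by symbol from a table of 18512 gene entries: every symbol that starts with Atp5 or Uqcr, the Sdh genes a to d, the Nduf genes of the a, b, c, s and v series, and the numbered Cox4 to Cox8 subunits that carry a letter a, b or c. This gave 79 genes, of which 75 had a mean raw count of at least 20 over the libraries and were kept. The cells were NMuMG, an epithelial line from mouse mammary gland that changes towards a migratory, mesenchymal state when given TGF-β. The 3 groups were DMSO (the vehicle), TGF-β at 5 ng/ml, and TGF-β at 5 ng/ml with 2APB at 50 uM, with 2 libraries each. 2APB is used to block store-operated calcium entry, and the study proposes that it also raises calcium entry through the ORAI3 channel. The study's results text gives 24 h of treatment, whereas its methods place 2APB 24 h before TGF-β. Cells given 2APB alone were not sequenced in the samples analysed here, so 2APB is always seen on top of TGF-β.

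The respiratory chain sits in the inner mitochondrial membrane. Complex I takes electrons from NADH and complex II from succinate, quinone carries them to complex III, cytochrome c carries them to complex IV, and complex IV passes them to oxygen. Complexes I, III and IV pump protons, and ATP synthase lets the protons flow back and makes ATP. Most subunits are encoded in the nucleus and are the ones measured here, while a few catalytic subunits are encoded in mitochondrial DNA and were not analysed here. Core subunits carry the flavin, the iron-sulfur clusters or the quinone site, and accessory subunits stabilise the complex.

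The deposited counts summed to between 71840570 and 79473182 per library, which is more than the average reads per sample that the study's methods give. Every count was even, so these sums are not taken as numbers of reads. The 75 genes took 0.986% and 0.960% of the sum in DMSO, 0.876% and 0.774% in TGF-β, and 0.807% and 0.830% in TGF-β+2APB. TGF-β response genes were checked first. All 6 that were measured rose in both treated groups, and Smad7, an inhibitory Smad induced by the pathway, stood at 4680 and 4655 normalized counts (raw counts scaled to a common library size) in DMSO, 9118 and 9573 in TGF-β, and 12774 and 11753 in TGF-β+2APB. Of 8 epithelial markers 7 were in the table, and their summed level was 528341 to 562775 in DMSO, 703369 to 825644 in TGF-β and 1309539 to 1376661 in TGF-β+2APB, carried by the keratins Krt8 and Krt18. The list did not move one way: Cdh1, Krt19 and Epcam fell in both treated groups (log2 -0.78, -2.04 and -1.42 with TGF-β, and -1.26, -4.09 and -0.97 once 2APB was added), and Epcam had only 130 and 158 raw counts in DMSO. Other cell types' markers also moved with the groups. The 5 hepatocyte markers summed to 68332 to 75253 in DMSO, 419 to 799 in TGF-β and 59.4 to 65.1 in TGF-β+2APB, and the 5 leukocyte markers to 583 to 704, 218 to 316, and 178 and 2399. The 6 fibroblast markers measured summed to 151 to 176 in DMSO, 2343 to 2351 in TGF-β and 2468 to 3108 in TGF-β+2APB, carried by Col1a1 and Pdgfrb, while Col1a2, Col3a1 and Dcn had at most 12 raw counts in any library. Endothelial, adipocyte and striated muscle markers (4 of 4, 2 of 3 and 3 of 6 measured) stayed at or below 88.8 in each library. The part of these markers in the results below was not tested.

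Short stretches of promoter are given for genes on which the account turns: Ndufa6, Ndufv3 and Cox7a1, which fell in both treated groups under each setting tried, Sdhd of complex II, and Uqcrc1, which was higher with TGF-β+2APB. Each is the 100 bases before the gene's start, 5′ to 3′ on the gene's strand, from RefSeq's GRCm38.p6 table, and ends where the more upstream of the RefSeq and GENCODE starts begins. Ndufa6 lies at chr15:82354323-82354422 (minus strand), Ndufv3 at chr17:31520015-31520114 (plus strand), Cox7a1 at chr7:30184044-30184143 (plus strand), Sdhd at chr9:50603850-50603949 (minus strand) and Uqcrc1 at chr9:108936533-108936632 (plus strand). Capitals mark GCATGCG, part of the site of the transcription factor NRF1, and CCGGAAG, the core bound by ETS factors such as GABP. Both were marked on either strand (CTTCCGG is CCGGAAG on the other strand). The Uqcrc1 stretch has no capitals, but the wider promoter window searched below holds GCATGCG outside the 100 bases shown. The wider windows of Ndufv3 and Cox7a1 hold neither motif.
Ndufa6: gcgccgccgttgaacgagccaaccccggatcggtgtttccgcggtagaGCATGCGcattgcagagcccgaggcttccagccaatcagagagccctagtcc
Sdhd: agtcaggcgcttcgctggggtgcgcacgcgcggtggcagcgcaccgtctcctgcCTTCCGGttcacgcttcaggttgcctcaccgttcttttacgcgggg
Ndufv3: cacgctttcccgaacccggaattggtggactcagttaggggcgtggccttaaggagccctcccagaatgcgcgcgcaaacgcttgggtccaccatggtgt
Cox7a1: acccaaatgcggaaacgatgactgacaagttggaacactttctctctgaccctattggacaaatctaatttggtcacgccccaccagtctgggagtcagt
Uqcrc1: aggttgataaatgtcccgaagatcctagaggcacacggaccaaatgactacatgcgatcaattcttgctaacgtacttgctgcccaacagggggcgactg

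TGF-β alone was compared with DMSO to see how the respiratory chain moved as the cells responded. In edgeR's quasi-likelihood test, with a call at a Benjamini-Hochberg FDR of 0.05 or less over 13353 genes tested, 23 of the 75 genes fell (30.7%), against 19.7% of all genes tested, and 0 were called higher, against 21.8% of all genes. At an unadjusted p under 0.05, 34 members were lower and 0 higher, and the shares of all genes were not counted there. DESeq2 called 32 lower (42.7%, against 22.6% of all genes) and 0 higher (against 24.6%). The median change of the members was -0.20 on the log2 scale (12.9% lower), beside -0.01 over all genes tested. The fitted change lay below 0 in 64 of 75 members. In 51 members both TGF-β libraries lay below both DMSO libraries (36.5% of all genes tested did so), in 3 both lay above (36.0% of all genes), and in 21 the groups overlapped.

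The 2 TGF-β libraries stood apart from each other in this gene family. The median member lay 0.15 below the DMSO mean in log2 units in replicate 1 (-0.15) and further below in replicate 2 (-0.29), and 56 and 70 members were below the DMSO mean. In TGF-β+2APB the medians were -0.17 and -0.13, and in DMSO 0.03 and -0.03, while the median over all genes tested was between -0.02 and 0.01 in each library. Without TGF-β replicate 1, 44 members (58.7%, against 25.1% of all genes) were lower and the median was -0.28. Without replicate 2, 31 were lower (41.3%, against 28.0%) and 9 higher (12%, against 29.0%) with a median of -0.15. Leaving out a DMSO library left 4 members lower (without replicate 1, 5.33% against 9.66% of all genes) or 7 (without replicate 2, 9.33% against 10.4%). The TGF-β+2APB libraries were not compared here, but they enter the scaling, the count filter and the shared spread. Leaving out either of them left 11 (14.7%, against 16.9% and 17.2%), as did a fit of the 4 libraries compared (14.7%, against 17.5%). The median of the members moved from -0.199 to -0.173 in each of these fits. The share of lower calls among the members was thus above that of all genes in the reported fit, but under it in these 5 fits, where the median still lay between -0.22 and -0.17.

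**Figure D1:**
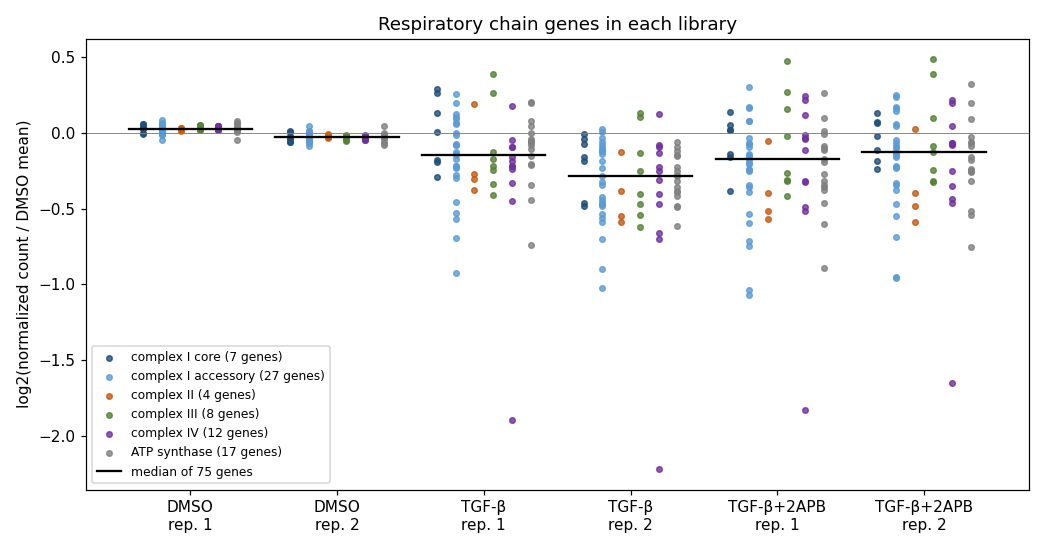
Each point is 1 respiratory chain gene in 1 library, as the log2 ratio of its normalized count to the mean of the DMSO libraries (y axis), coloured by complex, and black lines are medians of the 75 genes. The median sits at -0.15 and -0.29 in the TGF-β libraries and at -0.17 and -0.13 in the TGF-β+2APB libraries, and the lowest point in each treated library is Cox7a1.

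With TGF-β+2APB against DMSO, 23 members again fell (30.7%, against 27.2% of all genes tested) and 2 rose (2.67%, against 25.6%). The median was -0.16 (10.8% lower), beside 0.00 over all genes. Both treated libraries lay below both DMSO libraries in 51 members (43.8% of all genes tested), above in 15 (42.3%), and 9 overlapped. A correction for GC content gave 10 higher and 21 lower members with a median of -0.07, and one for transcript length gave 7 higher and 16 lower with a median of -0.03. All genes tested shifted up as well, to a median of 0.09 under each correction, with 33.9% and 30.1% of them called higher and 26.2% and 23.3% lower. The members have short transcripts, with a median of 659 bases beside 2470 over all genes tested. Leaving out 1 DMSO or TGF-β+2APB library left 8 to 11 members lower and 0 higher: 8 and 10 without DMSO replicates 1 and 2, and 9 and 11 without TGF-β+2APB replicates 1 and 2. These were 10.7%, 13.3%, 12% and 14.7% of the members, each under the share of all genes called lower in the same fit (17.2%, 17.7%, 19.5% and 21.2%). Without either TGF-β library 37 were lower (49.3%, against 33.3% and 34.0% of all genes), and 8 or 7 higher (10.7% and 9.33%, against 33.4% and 33.3%). Both comparisons share the DMSO libraries, and 20 members were called lower in both. The share of all genes called lower in both was not counted, so this number has no background beside it.

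Among the complexes, complex II had the highest share of lower calls and the complex I core the lowest in both comparisons with DMSO, as the plot of shares by list shows. Complex II had 3 of 4 subunits lower in each treated group. In the complex I core 1 of 7 was lower in each, and in the accessory subunits of complex I 9 of 27 with TGF-β and 8 of 27 with TGF-β+2APB. Complex III had 3 of 8 lower with TGF-β, and 2 lower and 2 higher with TGF-β+2APB. Complex IV had 4 of 12 lower in each, and ATP synthase 3 and then 5 of 17. The 17 include Atp5sl and Atp5s, which is 1 of the 5. The shares of different complexes were not tested against each other.

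**Figure D2:**
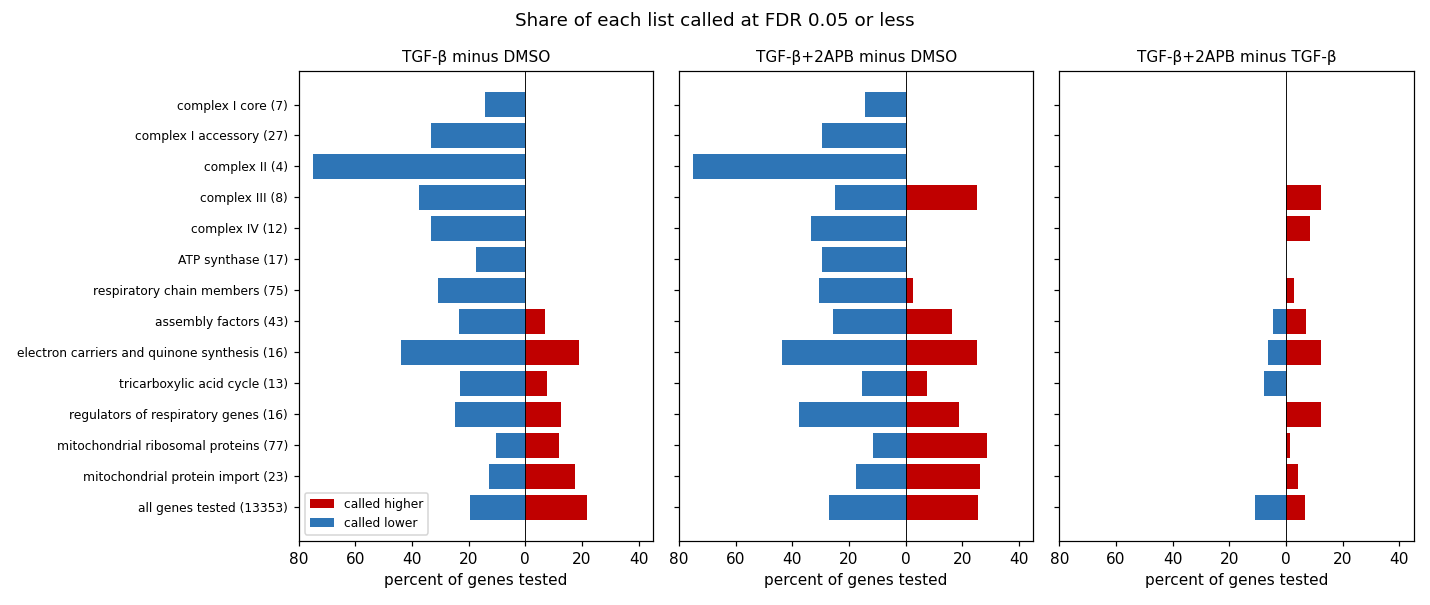
Bars give the percent of the tested genes of each list (number in parentheses) that were called higher (red, to the right) or lower (blue, to the left) in edgeR's test at an FDR of 0.05 or less, in 3 comparisons. Complex II has 3 of 4 subunits called lower in both comparisons with DMSO, all genes tested have 19.7% and 27.2%, and few members were called between the treated groups.

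In the complex I core the median was near DMSO in TGF-β replicate 1 (0.01 on the log2 scale) and lower in replicate 2 (-0.16). In the TGF-β+2APB libraries it was 0.02 and -0.02. Ndufs1, the large iron-sulfur subunit, had 7445 and 7462 normalized counts in DMSO, 7492 and 7408 in TGF-β, and 7541 and 7338 in TGF-β+2APB. The groups overlapped, and the fitted log2 changes were 0.00 ± 0.07 (SE) in both comparisons. Ndufs7, an iron-sulfur subunit near the quinone site, was the core subunit called lower, with 4045 and 3915 in DMSO, 3247 and 2851 in TGF-β, and 3053 and 3368 in TGF-β+2APB (log2 -0.38 ± 0.09, FDR = 0.021, and -0.31 ± 0.09, FDR = 0.035). Ndufs3 had a log2 change of -0.32 with TGF-β that missed the threshold (FDR = 0.052). Ndufs8, an iron-sulfur subunit, Ndufv1, the NADH-binding subunit, and Ndufv2 had changes from -0.17 to 0.10, none called. Both TGF-β libraries of Ndufs7, Ndufs3 and Ndufv2 lay below both DMSO libraries, as in 36.5% of all genes tested. The groups of Ndufs1, Ndufs8 and Ndufv1 overlapped there. The median of the core subunits was -0.02 with TGF-β and 0.00 with TGF-β+2APB. With the transcript length correction it was above 0 in both (0.03 and 0.12). Without TGF-β replicate 1 the median with TGF-β was -0.157.

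The accessory subunits of complex I held some of the deepest falls. Ndufa6, which carries the LYR motif and sits in the peripheral arm (gene at chr15:82350140-82354322, GRCm38), had 7086 and 7064 normalized counts in DMSO, 3728 and 3482 in TGF-β, and 3366 and 3656 in TGF-β+2APB. It was about the same in both treated groups and stood at 0.510 and 0.496 of its DMSO level (log2 -0.97 ± 0.08, FDR = 0.00047, and -1.01 ± 0.08, FDR = 0.00025). Ndufv3, a small accessory subunit beside the NADH-binding site (chr17:31520115-31531331), went from 5818 and 5692 to 3874 and 3094, and to 2805 and 2963 with 2APB (log2 -0.72 ± 0.12 and -0.996 ± 0.12). All 4 treated libraries of each gene lay below both DMSO libraries, and both calls held in each of 18 settings.

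The other falling accessory subunits moved less. Ndufb11, a subunit of the membrane arm, had 6999 and 6427 in DMSO, 4899 and 4121 in TGF-β, and 4096 and 4167 in TGF-β+2APB. Ndufa1, another small membrane subunit, had 1960 and 2000 in DMSO and 1221 to 1559 in the treated libraries. Ndufa5 went from 1561 and 1533 to 1071 and 1069, and to 921 and 1056. Their log2 changes against DMSO were -0.57, -0.63 and -0.53 for TGF-β alone, then -0.70, -0.47 and -0.65 once 2APB was added, and the groups did not overlap DMSO. Ndufa13 and Ndufb5 also fell in both, Ndufa2 and Ndufa8 only passed the threshold with TGF-β, and Ndufa3 only with TGF-β+2APB. The other 17 accessory subunits of complex I were called in neither comparison with DMSO, and their log2 changes ran from -0.40 (Ndufb10, TGF-β) to 0.28 (Ndufb4, TGF-β+2APB).

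In complex II, the succinate dehydrogenase that also serves the citric acid cycle, the flavin subunit and both membrane anchors fell, while the iron-sulfur subunit did not pass. Sdha, which carries the flavin, had 26841 and 25714 in DMSO, 21772 and 20123 in TGF-β, and 19966 and 19909 in TGF-β+2APB. Sdhc went from 11150 and 10669 to 8840 and 7251, and to 7343 and 7267. Sdhd, the other anchor, went from 11563 and 11295 to 8795 and 7801, and to 7979 and 8168. None of these treated libraries reached the DMSO range. The log2 changes of Sdha, Sdhc and Sdhd were -0.33, -0.44 and -0.46 for TGF-β alone, then -0.40, -0.58 and -0.50 once 2APB was added (SE 0.07 to 0.11, FDR from 0.0041 to 0.023). Sdhb, the iron-sulfur subunit between them, had 3935 and 3888 in DMSO, 4465 and 3590 in TGF-β, and 3772 and 3978 in TGF-β+2APB, so that its groups overlapped (log2 0.04 ± 0.11 and -0.01 ± 0.11). The 3 falls were called under the other scalings and both corrections. Leaving out either DMSO library ended the 3 calls for TGF-β, leaving out either TGF-β+2APB library left 1 of them, and for TGF-β+2APB 1 call stood without DMSO replicate 1, 2 without TGF-β+2APB replicate 1 and 1 without its replicate 2.

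Complex III moved in both directions. Uqcrc1, a core protein of the matrix side, had 15809 and 15309 in DMSO, 20358 and 16697 in TGF-β, and 21604 and 21760 in TGF-β+2APB. Both TGF-β+2APB libraries lay above all others (log2 0.48 ± 0.11 against DMSO, FDR = 0.012), and the rise with TGF-β alone was not called (log2 0.25 ± 0.11, FDR = 0.11). Uqcrq, a small subunit, went from 4055 and 3901 to 4780 and 4354, and to 4795 and 5197, and was likewise called with TGF-β+2APB (log2 0.33 ± 0.08, FDR = 0.020). Neither rise was called once a DMSO or a TGF-β+2APB library was left out. Uqcrfs1, the Rieske iron-sulfur protein, and Uqcrh, the hinge protein beside cytochrome c1, fell in both. Uqcrfs1 had 11889 and 11586 in DMSO and 8077 to 9430 in the treated libraries, and Uqcrh 5983 and 5568 in DMSO and 3750 to 4662. Their log2 changes were -0.44 and -0.51 for TGF-β alone, then -0.32 and -0.31 once 2APB was added.

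In complex IV the fall of Cox7a1, an isoform known from heart and skeletal muscle, was the deepest of any member. It had 269 and 252 normalized counts in DMSO, 70.1 and 56.0 in TGF-β, and 73.3 and 82.9 in TGF-β+2APB. The gene, at chr7:30184144-30186078, fell by 75.8% and 70.0% (log2 -2.04 ± 0.24, FDR = 0.0016, and -1.74 ± 0.23, FDR = 0.0018). It was also the least abundant member by raw count. As CPM per kilobase of transcript its level in DMSO was 8.68, beside 108 for Cox7a2, the isoform found in most tissues. Cox7a2 had 5592 and 5277 normalized counts in DMSO and 4563 to 5312 in treated libraries, and was not called.

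Cox8a, a small membrane subunit, had 19964 and 18997 in DMSO, 14263 and 11986 in TGF-β, and 13890 and 14379 in TGF-β+2APB (log2 -0.57 ± 0.10 and -0.46 ± 0.10). Cox6a1, the isoform outside muscle, went from 13273 and 12636 to 10279 and 8207, and to 9064 and 9401 (log2 -0.49 ± 0.12 in each). Cox7a2l, which takes part in joining complexes III and IV into supercomplexes, fell by 19.2% and 20.9%. Its calls held in 12 and 13 of 18 settings, and were lost with the transcript length correction (FDR = 0.114 and 0.149). Cox5a, Cox5b, Cox6b1, Cox6c, Cox7b and Ndufa4, a subunit of complex IV despite its name, were not called in any comparison, with log2 changes from DMSO between -0.32 and 0.23.

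In ATP synthase the catalytic head was split. Atp5c1, the central stalk subunit gamma, fell from 21972 and 20239 to 16633 and 13752, and to 13882 and 14482 (log2 -0.47 ± 0.11 and -0.57 ± 0.11). Atp5a1, the alpha subunit, went from 84521 and 80356 to 71157 and 59111, and to 64459 and 65991 (log2 -0.34 ± 0.10 in each). The calls of Atp5a1 (FDR = 0.041 and 0.034) held in 11 and 12 of 18 settings. They were lost with the transcript length correction (FDR = 0.088 and 0.168). Atp5b, its partner beta and the most abundant member per kilobase (699 CPM per kilobase in DMSO), had 104685 and 99952 in DMSO, 107767 and 87460 in TGF-β, and 90638 and 91558 in TGF-β+2APB, and was not called (log2 -0.07 ± 0.11 and -0.17 ± 0.11).

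Atp5f1, subunit b of the peripheral stalk, had 17719 and 17352 in DMSO and 12262 to 12921 in the treated libraries. Its log2 changes of -0.46 ± 0.07 and -0.49 ± 0.07 held in each of 18 settings. Atp5s, a coupling factor outside the main structure, went from 855 and 909 to 528 and 724, and to 475 and 523, called with TGF-β+2APB (log2 -0.82 ± 0.17, FDR = 0.0097). Atp5e, the epsilon subunit, was also called lower there (log2 -0.31 ± 0.10, FDR = 0.044). The genes Atp5g1, Atp5g2 and Atp5g3, which encode the same c subunit of the membrane ring, were not called and had changes from -0.20 to 0.29.

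**Figure D3:**
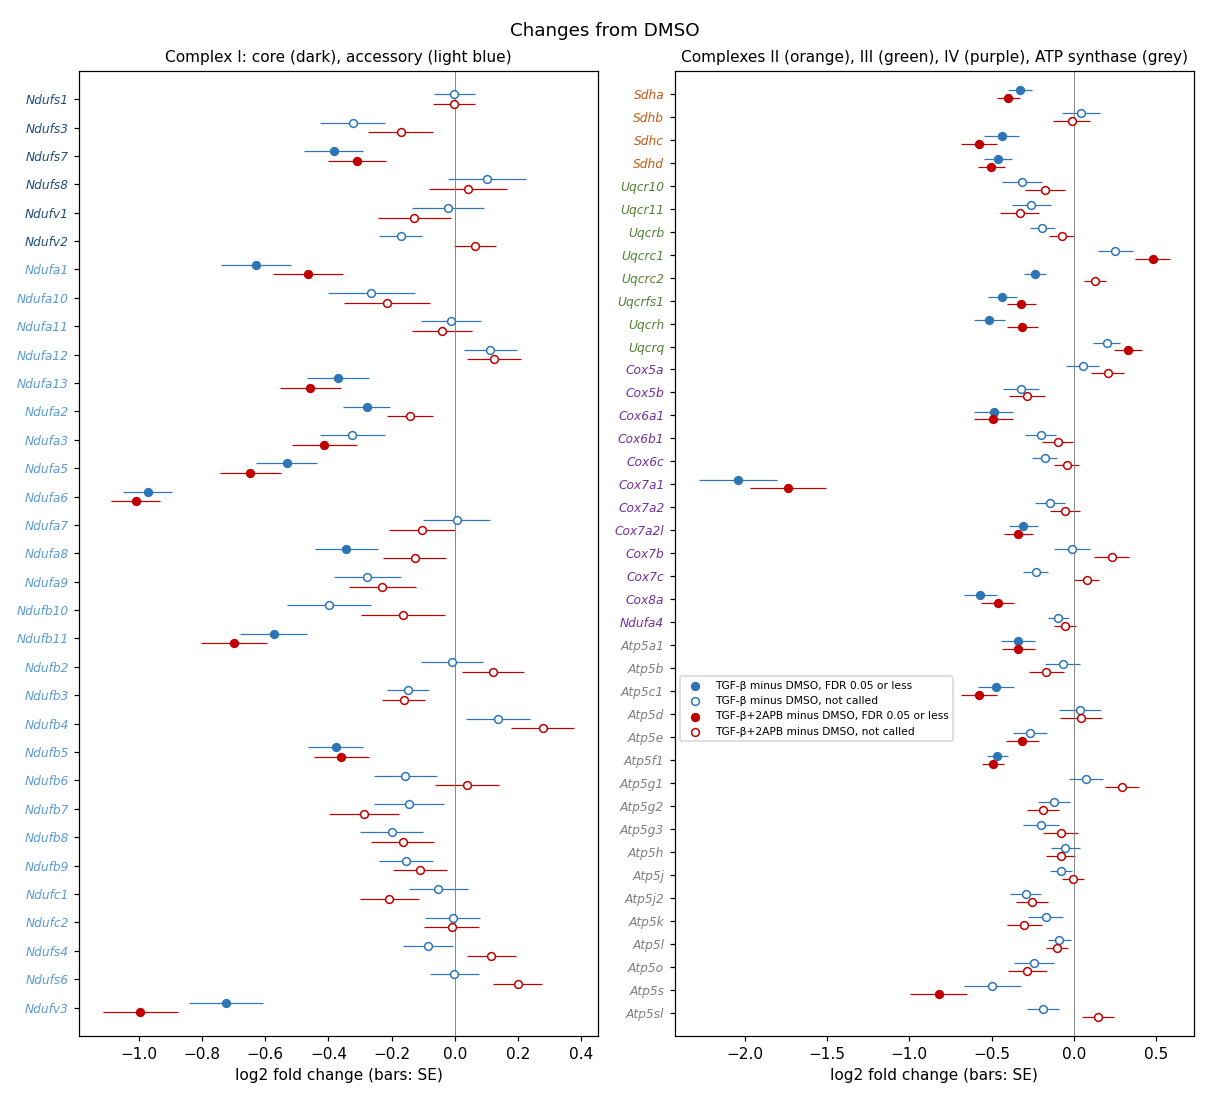
Points give the log2 fold change from DMSO (x axis, bars are SE) of the respiratory chain genes, 1 left out, for TGF-β (blue) and TGF-β+2APB (red), filled where the FDR was 0.05 or less, with gene names coloured by complex and different x ranges in the panels. Most points lie left of 0, Cox7a1 lies at -2.04 and -1.74, Ndufa6 at -0.97 and -1.01, and Uqcrc1 and Uqcrq are filled on the right with TGF-β+2APB.

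TGF-β+2APB was compared directly with TGF-β to see what 2APB added. Here 2 members were called higher (2.67%, against 6.58% of all genes tested) and 0 lower (against 10.9%). At an unadjusted p under 0.05, 6 were higher and 0 lower, again without a count over all genes. DESeq2 called 4 higher (5.33%, against 12.1% of all genes) and 0 lower (against 15.2%). The median was 0.03, beside 0.00 over all genes. In 22 members both TGF-β+2APB libraries lay above both TGF-β libraries (27.0% of all genes tested), in 5 below (31.0%), and in 48 the groups overlapped. The median turned with the TGF-β library: it was 0.12 without replicate 1 and -0.05 without replicate 2, and -0.002 without TGF-β+2APB replicate 2. Without TGF-β replicate 1, 20 members were higher (26.7%, against 13.1% of all genes) and 1 lower (1.33%, against 15.2%). Without TGF-β replicate 2, 5 were higher and 11 lower (6.67% and 14.7%), both under the shares of all genes (18.4% and 21.9%).

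The called genes were Uqcrc2 and Cox7c. Uqcrc2, the other core protein of complex III (chr7:120635176-120659524), had 15716 and 14975 in DMSO, 13180 and 12870 in TGF-β, and 17141 and 16398 in TGF-β+2APB. It was lowest in TGF-β and highest in TGF-β+2APB, with no overlap between any of the groups (log2 -0.24 ± 0.07 for TGF-β, FDR = 0.038, and 0.37 ± 0.07 for the addition of 2APB, FDR = 0.021). The difference of TGF-β+2APB from DMSO was not called (log2 0.13 ± 0.07, FDR = 0.17), and 42.3% of all genes tested lay above DMSO there without overlap. Cox7c, a small subunit of complex IV (chr13:86044816-86046904), had 1991 and 1876 in DMSO, 1638 and 1652 in TGF-β, and 2093 and 1993 in TGF-β+2APB (log2 0.31 ± 0.08 for the addition of 2APB, FDR = 0.043). Both calls for the addition of 2APB were absent when a DMSO or a TGF-β+2APB library was left out, and also in a fit of the 4 libraries compared, where 0 members were called. They held in 13 of 18 settings for Uqcrc2 and in 11 for Cox7c. The lower call of Uqcrc2 with TGF-β alone held in 8 of 18, with an FDR of up to 0.271 (without DMSO replicate 1), 0.061 with the replicate block and 0.081 with the transcript length correction.

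**Figure D4:**
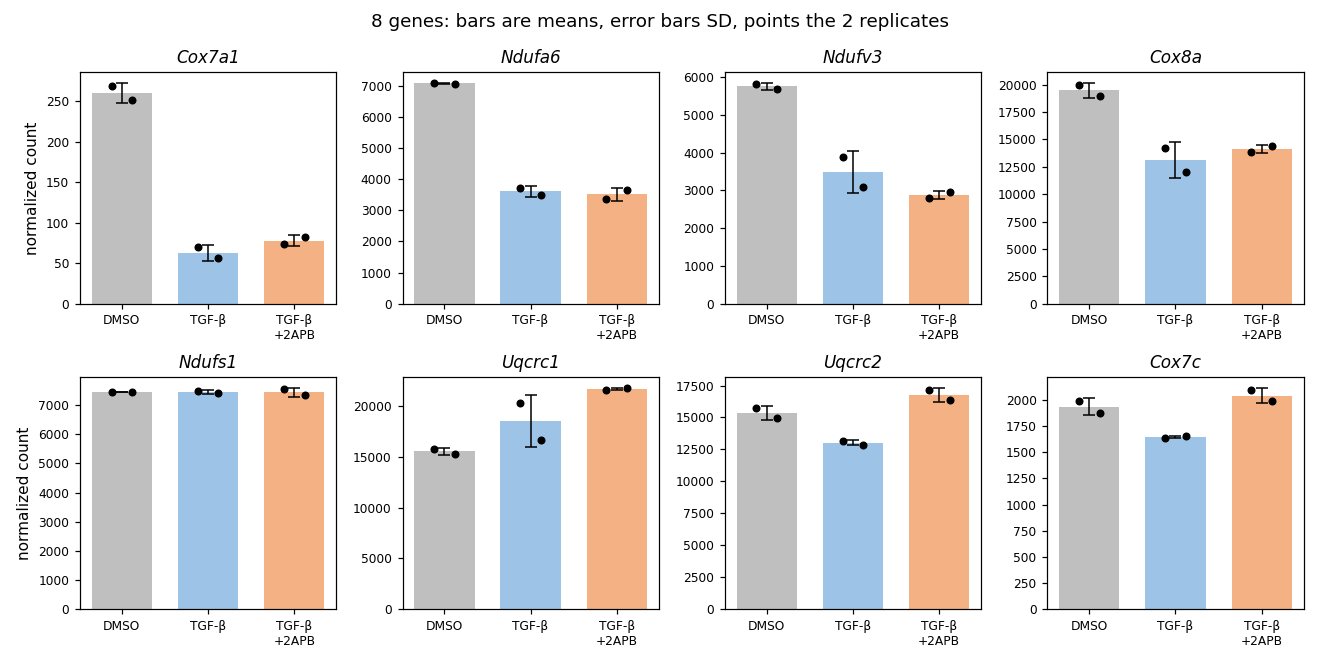
Bars are mean normalized counts of 2 replicates (y axis, from 0, a separate scale per gene), error bars are SD and points are the replicates, in DMSO, TGF-β and TGF-β+2APB. Cox7a1, Ndufa6, Ndufv3 and Cox8a are lower in both treated groups, Ndufs1 is level, Uqcrc1 is highest with TGF-β+2APB, and Uqcrc2 and Cox7c are lowest with TGF-β alone.

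The count minimum left out 4 genes. The nearest below it was Cox6b2, a testis isoform, with raw counts of 2 and 2 in DMSO, 10 and 18 in TGF-β, and 18 and 22 in TGF-β+2APB, and Cox6a2, Cox8b and Cox8c had at most 2 counts in any library. The lowest member above it was Cox7a1, followed by Atp5s. Subunits whose names fall outside the symbol rule, Cyc1 (cytochrome c1), Cox4i1 and Ndufab1, were not called, with log2 changes from -0.18 to 0.20 against DMSO, and Cox4i2 had too few counts to test.

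Genes that serve the chain had calls in both directions, as did all genes tested (19.7% lower and 21.8% higher with TGF-β, 27.2% and 25.6% with TGF-β+2APB). Of 43 assembly factors tested, 10 fell (23.3%) and 3 rose (6.98%) with TGF-β, and 11 fell (25.6%) and 7 rose (16.3%) with TGF-β+2APB. Cox19, a copper-handling factor of complex IV, fell by 0.75 on the log2 scale with TGF-β, Cox18, which inserts a complex IV subunit into the membrane, rose by 0.71, and Ndufaf2, a complex I assembly factor, was 0.90 higher with TGF-β+2APB and 0.68 higher than with TGF-β alone. Among 16 electron carriers and quinone genes 7 fell in each group (43.8%), and 3 and then 4 rose (18.8% and 25.0%). Cycs, the somatic cytochrome c, rose from 6349 and 6198 to 8921 and 9768, and to 10628 and 10354. It was called higher in both treated groups (log2 0.575 and 0.742). The electron transfer flavoprotein genes Etfa and Etfb and their quinone reductase Etfdh fell in both groups (log2 -0.58 to -0.83 with TGF-β, and -0.55 to -1.07 with TGF-β+2APB).

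Of 16 regulators, 4 fell (25.0%) and 2 rose (12.5%) with TGF-β, and 6 fell (37.5%) and 3 rose (18.8%) with TGF-β+2APB, and the other lists are set against the same shares of all genes. Ppargc1b, a coactivator of mitochondrial genes, had 558 and 566 normalized counts in DMSO, 214 and 205 in TGF-β, and 398 and 322 in TGF-β+2APB. Esrra, a nuclear receptor that binds many respiratory genes, went from 7467 and 7266 to 5094 and 4592, and to 4049 and 4161, and Pprc1, a coactivator related to Ppargc1b, rose from 6506 and 7006 to 12985 and 11903, and to 13162 and 12625. Tfam, the packaging factor of mitochondrial DNA, fell by 0.23 and 0.28 on the log2 scale. Nrf1 and Gabpa were not called, and Gabpa differed between the TGF-β libraries, at 5367 and 9907. In the citric acid cycle 3 of 13 genes fell (23.1%) and 1 rose (7.69%) with TGF-β, and 15.4% and 7.69% once 2APB was added, with Suclg2 at -0.80 and -1.32 and Idh3a at 0.37 and 0.52 in log2 units. Among 7 carriers and porins 1 fell with TGF-β (14.3%) and 3 with TGF-β+2APB (42.9%), including the ATP synthase inhibitor Atpif1 in both. The 77 mitochondrial ribosomal proteins had 9 higher (11.7%) and 8 lower (10.4%) with TGF-β and 22 higher (28.6%) and 9 lower (11.7%) with TGF-β+2APB. Of 23 import genes 4 and 6 rose (17.4% and 26.1%) and 3 and 4 fell (13% and 17.4%).

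Promoters were available for 65 of the 75 members, by symbol or synonym, as windows of 250 bases before to 50 after the start. The names without one included Atp5a1, Ndufa2, Ndufb9, Ndufs1, Sdhc, Uqcrb, Uqcrc2, Uqcrq and Cox6c. The 3 motifs searched, on both strands, were CCGGAAG (ETS), GCATGCG (NRF1) and AAGATGG, the core of the YY1 site, and 31 members held at least 1. GCATGCG was in 10 of the 65 windows (15.4%), against 6.53% of 10014 genes tested and 3.64% of all 27025 windows. For CCGGAAG the shares were 23.1%, 17.7% and 9.12%, and for AAGATGG 16.9%, 7.33% and 6.48%. Among the 19 members with a window that fell with TGF-β the shares were 15.8%, 21.1% and 10.5% in that order of motifs, beside 15.2%, 23.9% and 19.6% in the other 46. A match describes letters in a window and is not a measured binding site.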

How the data were processed

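NMuMG RNA was selected with oligo-dT and sequenced as single-end reads of 50 bases, with 2 biological replicates per group according to the study's methods. The authors checked reads with FastQC 0.11.2, aligned them with TopHat2 2.0.13 and counted them per gene with featureCounts, and the deposited values are raw counts. The submitters' processing notes name mm10, the methods hg19; the symbols are mouse symbols. Strand setting and treatment of reads with several alignments are not given in the sources used here, so reads shared with processed pseudogenes could not be assessed. Every deposited count was even, and the cause is not given in the sources used here. A spreadsheet had turned 25 names into dates.

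Counts were fitted with edgeR 4.0.16 (R 4.3.3): TMM scaling, genes averaging 20 or more normalized counts (13353), the 3 groups in 1 quasi-likelihood model without covariates, and Benjamini-Hochberg adjustment over all genes tested. SE is the log2 fold change over the square root of F. Replicates differed by 17.4% (biological coefficient of variation). Positions, lengths and GC came from GENCODE vM21 (GRCm38). Scripts were tested on simulated data. The members, lists and named genes were chosen with earlier results of these data known: core subunits, tissue isoforms and, per complex and comparison, the 2 largest called rises and falls with the same sign in both replicates, and for other lists the largest rise and fall. Further genes were named after their values were seen. Alternatives were DESeq2 1.42.0, other scalings and filters, GC and length corrections (loess, span 0.5), halved counts, replicate blocks, fits of the 4 libraries compared, an FDR of 0.01, a list of structural subunits only, and each library left out. The structural list left out Atp5s and Atp5sl and took in Cyc1, Cox4i1 and Ndufab1. TMM factors recomputed after the filter were added after the data had been seen. Results named for 1 member are not reported here.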

Additional observations from a re-analysis of the deposited data

Results flagged for a closer look

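The responses to TGF-β alone and to TGF-β+2APB, each relative to DMSO, differed by edgeR's quasi-likelihood test for Uqcrc2 and Cox7c. The change of Uqcrc2 was 0.365 higher on the log2 scale with 2APB (FDR = 0.021, both TGF-β+2APB libraries above both TGF-β libraries), and that of Cox7c 0.312 higher (FDR = 0.043, likewise without overlap). This is the same test as the direct comparison of the treated groups above. There 2.67% of the members were called higher, against 6.58% of all genes tested, and 0 lower, against 10.9%. The calls held in 13 and 11 of 18 settings. Neither held in a fit of the 4 libraries compared, nor when a DMSO or a TGF-β+2APB library was left out.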

How the results depend on the processing

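With 2 libraries per group the number of members called depended on the libraries and the fit, while the median change against DMSO kept its sign in every alternative. With each library left out in turn, 4 to 44 members were called with TGF-β (23 in the reported fit) with medians from -0.28 to -0.146, 8 to 45 with TGF-β+2APB (25 reported), and 0 to 21 between the treated groups (2 reported) with medians from -0.05 to 0.121. Fits of only the 4 libraries compared gave 11, 44 and 0 members for these 3 comparisons. The 11 were all lower (14.7%, against 17.5% of all genes). Of the 44, 37 were lower (49.3%, against 33.8%) and 7 higher (9.33%, against 33.1%). Between the treated groups 2.81% of all genes were called higher and 3.73% lower in that fit. An FDR of 0.01 gave 10, 11 and 0 members, and the shares of all genes were not counted there. For TGF-β+2APB against DMSO the median of -0.164 moved to -0.074 with the GC correction, to -0.074 with the replicate block and GC correction, and to -0.027 with the transcript length correction, while the median over all genes moved from -0.003 to 0.091, 0.089 and 0.091. Between the treated groups DESeq2 called 4 members, no filter 1, TMM factors recomputed after the filter 4, the GC correction 9, and the replicate block with the GC correction 8. Except for the fits with fewer libraries, the cause of these differences was not tested.

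Deviations of same-numbered libraries had r = 0.148 (DMSO and TGF-β), -0.458 (DMSO and TGF-β+2APB) and -0.255 (TGF-β and TGF-β+2APB). Both negative values involve TGF-β+2APB and turn positive if its replicate numbers are exchanged. With 2 libraries per group these values cannot decide whether libraries were paired under either numbering. The replicate block called 20, 23 and 1 members in the 3 comparisons, and a block with the TGF-β+2APB numbers exchanged called 28, 30 and 1. With TGF-β 26.7% and 37.3% were lower in these 2 fits, against 16.8% and 20.9% of all genes. With TGF-β+2APB 28.0% and 36.0% were lower, against 24.5% and 27.9%, and 2.67% and 4.0% higher, against 23.1% and 26.3%. Between the treated groups 1.33% were higher in each, against 3.8% and 6.97%.

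In 18 settings, Ndufa6, Ndufv3, Atp5f1 and Cox7a1 kept their calls in both comparisons with DMSO, and Ndufa5, Sdhd and Ndufb11 also with TGF-β+2APB. The other calls held in fewer settings. With TGF-β+2APB those of Atp5e, Uqcrfs1 and Uqcrh held in 11 of 18 each. The calls of Ndufs7 held in 13 with TGF-β and in 12 with TGF-β+2APB. Over the named genes, 1037 of 1144 values of called changes kept the call in alternatives that left out no library, and 0 reversed in any alternative. A smaller share kept the call with a library left out. Many of these genes were chosen as the largest called changes, and some lie outside the respiratory chain. Such changes could hardly reverse, so the tally is no separate support for the members. Counting error bears most on Cox7a1, with 54 to 274 raw counts per library. These counts were all even, so the number of reads behind them is not known.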
